A study of Mus musculus with 6 samples.

Results

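Type 1 diabetes islet autoantigens are the proteins of insulin-producing beta cells that autoantibodies or T lymphocytes recognise in the disease, and 8 genes that encode them were followed here. The genes were chosen by name, through the RefSeq accession of each array probe: Gad1, Gad2, Ptprn, Ptprn2, Slc30a8, G6pc2, Ica1 and Tspan7. For each gene the probe with the highest mean signal was used. All 8 were above background on all 6 arrays, and they are 8 of 25788 genes tested. The exoNOD group (3 arrays) was islet cells of male C57Bl/6N mice, dispersed and cultured for 72 h with 50 µg/ml of exosomes, small vesicles that cells release. Their source was the culture medium of CD4+CD25- T lymphocytes taken from NOD mice, which develop autoimmune diabetes spontaneously. The control group (3 arrays) was the same kind of cells cultured for 72 h without exosomes. The 6 arrays include no group given vesicles from another source. The study reports 3 independent experiments with different islet and exosome preparations. The host strain of the islet cells is not the diabetes-prone one, and each RNA came from a mixture of islet cell types.

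Most of these antigens belong to the secretory machinery of the beta cell. Ptprn and Ptprn2 encode the protein tyrosine phosphatase-like antigens of the dense-core granule membrane, Slc30a8 encodes the zinc transporter that loads insulin granules, and G6pc2 encodes the islet-specific glucose-6-phosphatase catalytic subunit. Gad1 and Gad2 encode the glutamate decarboxylases that make the transmitter GABA, Ica1 encodes a protein of granule formation at the Golgi, and Tspan7 encodes a tetraspanin of the cell surface and granules. Autoantibodies to the Gad2, Ptprn and Slc30a8 products are used in the clinic to stage risk in people, while the G6pc2 product is a well-known target of CD8 T lymphocytes in NOD mice.

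To show the upstream sequence of members whose changes are contrasted, the 250 bases before the annotated start of Gad1, of its paralog Gad2 and of G6pc2 are printed 5′ to 3′ from RefSeq (GRCm38.p6, plus strand). The Gad1 window is chr2:70561879-70562128, the Gad2 window chr2:22622077-22622326 and the G6pc2 window, at the first of its annotated starts, chr2:69210823-69211072. Capitals mark matches, on either strand, to short elements that islet and general transcription factors are known to read. The E-box is spelled CANNTG and bound by basic helix-loop-helix factors. The TATA box is spelled TATAAA and the GC box, read by Sp factors, is spelled GGGCGG. The core of the cAMP response element is spelled TGACG. The homeodomain core is spelled TAATTA, and the core of the MafA element is spelled TGCTGA.
Gad1: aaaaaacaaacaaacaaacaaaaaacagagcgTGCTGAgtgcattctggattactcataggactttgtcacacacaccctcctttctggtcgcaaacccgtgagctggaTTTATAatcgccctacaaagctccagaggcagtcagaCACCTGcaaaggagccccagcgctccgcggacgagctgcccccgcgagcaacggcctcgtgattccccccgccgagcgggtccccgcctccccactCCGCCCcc
Gad2: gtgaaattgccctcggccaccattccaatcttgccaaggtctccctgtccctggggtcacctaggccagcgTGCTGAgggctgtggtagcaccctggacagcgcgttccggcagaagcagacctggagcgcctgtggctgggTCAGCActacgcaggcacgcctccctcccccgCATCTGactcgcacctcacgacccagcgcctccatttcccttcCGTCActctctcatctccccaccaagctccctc
G6pc2: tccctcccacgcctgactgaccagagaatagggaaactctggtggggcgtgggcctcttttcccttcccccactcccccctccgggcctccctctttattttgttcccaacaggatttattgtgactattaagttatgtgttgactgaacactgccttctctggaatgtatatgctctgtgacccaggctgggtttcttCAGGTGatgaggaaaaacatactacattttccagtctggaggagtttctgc
The Gad1 window held a MafA core at 218, a TATA box at 141, an E-box at 104 and a GC box at 8 bases before the start. The Gad2 window held MafA cores at 179 and 108, an E-box at 76 and a cAMP response core at 33 bases before the start. The printed G6pc2 window held an E-box at 51 bases before the start. The window at its other annotated start is not printed. It held E-boxes at 181, 78, 34 and 20 and MafA cores at 121 and 27 bases before that start. No marked match overlapped another in these windows. Over all 32851 windows of the same length, the E-box occurred in 66.2%, the GC box in 32.7%, the cAMP response core in 17.8%, the MafA core in 16.1%, the TATA box in 12.4% and the homeodomain core in 4.84%. The matches are a description of letters and not of bound factors. Of the 8 genes, 7 had an entry in the promoter table, all but Slc30a8.

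Setting exoNOD beside control cells asks how vesicles of T lymphocytes alter gene expression in islet cells. A level below is the log2 signal minus the log2 75th percentile of the same array, and a change is the exoNOD mean minus the control mean (3 arrays each). Gad1 and Slc30a8 had the 2 most negative changes of the 8 genes, or percent changes in signal of −29.9% and −26.7%. G6pc2 and Ptprn2 had changes near 0, Gad2 had the highest (0.16, with the widest interval), and Ptprn, Ica1 and Tspan7 had small negative changes. In limma, with p adjusted by Benjamini-Hochberg across every gene tested and a threshold of 0.05, 0 of the 8 passed, where 27 of 25788 genes did (0.105%; 0.101% higher and 0.00388% lower). At an unadjusted p under 0.05, 1 of the 8 was lower (Gad1), as were 3.39% of all genes, and 16.6% changed in either direction. With the replicate number as a block, which compares arrays of equal number, 2 of the 8 fell (Gad1 and Slc30a8), where 1.83% of all genes fell and 6.89% rose (8.72% in all). The labels do not state that equal numbers share an islet preparation. By mean, 6 of the 8 were lower in exoNOD cells (44.6% of all genes were), and the median change of the 8 was −0.12, against 0.04 over all genes. That median was −0.19 without exoNOD replicate 1 and, under the block, −0.079 without pair 2. In bulk RNA, fewer cells of a type and less RNA per cell cannot be told apart.

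**Figure D1:**
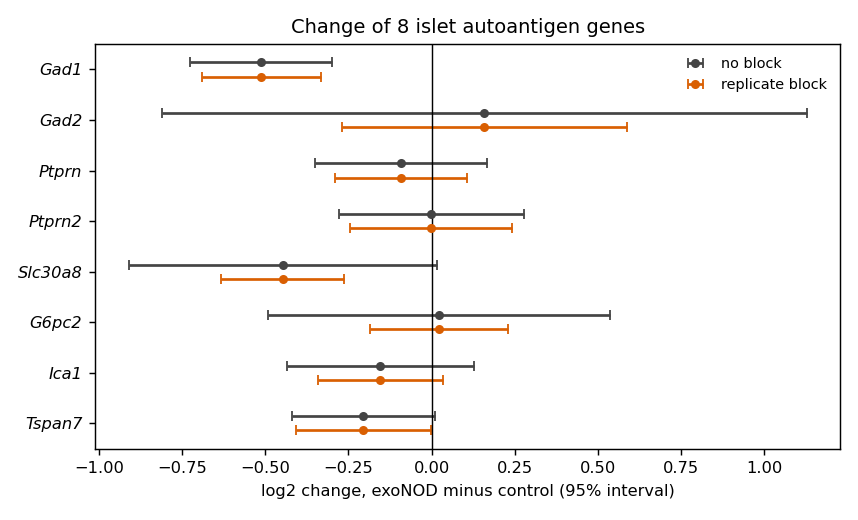
Log2 change (exoNOD minus control) of each of the 8 genes with its 95% interval from limma, without a block (grey) and with the replicate block (orange), n = 3 arrays per group. Both intervals of Gad1 lie below 0, those of Slc30a8 and Tspan7 do so with the block (before adjustment over genes), and Gad2 has the widest interval.

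Gad1 encodes the glutamate decarboxylase that neurons use for most of their GABA, and mouse islets are known to carry it. Its signal was 1550.5, 1667 and 1518 on exoNOD arrays 1, 2 and 3, against 2230.05, 2247 and 2017 on control arrays 1, 2 and 3. All 3 exoNOD arrays lay below all 3 control arrays. The level was 0.84 ± 0.07 in exoNOD cells and 1.35 ± 0.04 in control cells (SD, n = 3 each), so the spread within either group was small beside the difference. The log2 change was −0.51 ± 0.09 (SE, 95% interval −0.73 to −0.30), with a limma adjusted p of 0.0825, and of 0.00486 with the replicate block. The 3 pairs of equal number differed by −0.56, −0.43 and −0.54. The labels name no slides, and slide here means a set of arrays with the same scan time. By this, exoNOD replicate 1 and the 3 controls are slide 1, and exoNOD replicates 2 and 3 are slide 2. Within slide 1 the Gad1 change was −0.52, and exoNOD replicates 2 and 3 differed from the controls by −0.51. Gad1 passed in 8 of 8 alternative fits with the block and in 2 of 17 without it, those with array weights (0.0392) and without exoNOD replicate 1 (0.0429).

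Gad2 encodes the second glutamate decarboxylase, the form that is the major antigen in human disease. Its probe was dim, with signals of 40.3, 63.8 and 20.9 on exoNOD arrays 1, 2 and 3, against 35.3, 48.4 and 20.0 on control arrays 1, 2 and 3. In each group replicate 2 was the brightest and replicate 3 the dimmest, and the groups overlapped. The level was −4.55 ± 0.82 in exoNOD cells and −4.70 ± 0.59 in control cells. The log2 change was 0.16 ± 0.43 (95% interval −0.81 to 1.13, limma adjusted p = 0.870), and with the block the interval was −0.27 to 0.59. Both intervals span 0, so these arrays did not resolve its direction. The change was −0.04 with quantile normalization and 0.88 with normexp background correction.

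**Figure D2:**
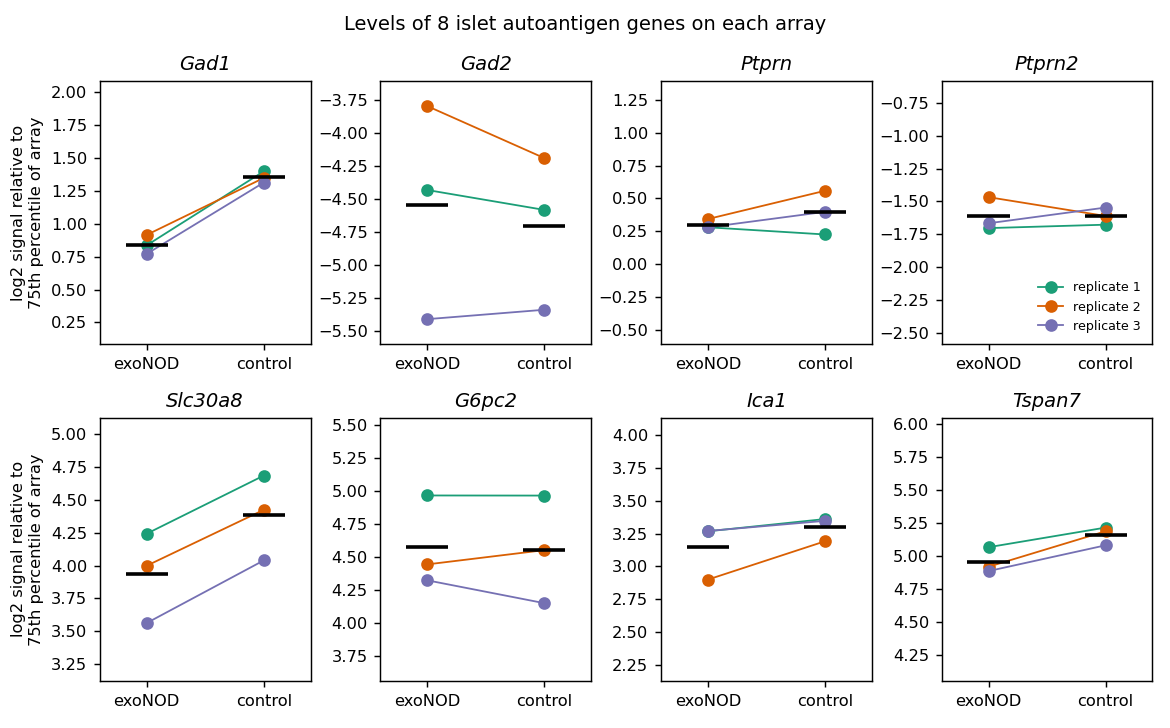
Level of each of the 8 genes on every array (log2 signal relative to the 75th percentile of the array), exoNOD on the left and control on the right of each panel. Points of equal replicate number are joined, bars are group means, and every panel spans 2 log2 units; the lines of Gad1 and Slc30a8 run parallel, while those of G6pc2 do not share a direction.

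Slc30a8, the zinc transporter of the insulin granule, had signals of 16436, 14132 and 10514 on exoNOD arrays 1, 2 and 3, against 21742, 18934 and 13343 on control arrays 1, 2 and 3. The groups overlapped, since exoNOD replicate 1 was above control replicate 3, but the exoNOD array was the dimmer of its pair each time. The level was 3.93 ± 0.34 in exoNOD cells and 4.38 ± 0.32 in control cells. The log2 change was −0.45 ± 0.20 (95% interval −0.91 to 0.01, limma adjusted p = 0.309). With the replicate block its SE was 0.08 and its adjusted p 0.0114, since the pairs differed by −0.44, −0.42 and −0.48. Levels within the control group spanned 0.64, far more than the 0.05 spanned by the pair differences. Within slide 1 the change was −0.14, and it was −0.60 for exoNOD replicates 2 and 3. Without the block, it was −0.26 when exoNOD replicate 3 was left out and −0.30 when control replicate 1 was. The call was lost with the block without replicate pair 3 (−0.43, adjusted p = 0.0909) and with the block after normexp background correction (−0.63, 0.199).

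G6pc2, whose protein splits glucose-6-phosphate in the beta cell, varied more between replicate numbers than between groups. Its signal was 27174, 19239 and 17798 on exoNOD arrays 1, 2 and 3, against 26453, 20701 and 14398 on control arrays 1, 2 and 3. Both groups had the brightest array in replicate 1 and the dimmest in replicate 3, and they overlapped throughout. The level was 4.58 ± 0.34 in exoNOD cells and 4.56 ± 0.41 in control cells. The log2 change was 0.02 ± 0.23 (95% interval −0.49 to 0.53, limma adjusted p = 0.968), and the pairs differed by 0.00085, −0.11 and 0.17. With the block the interval narrowed to −0.19 to 0.23. Within slide 1 the change was 0.41, and for exoNOD replicates 2 and 3 it was −0.17. Its sign was also negative with median scaling (−0.12).

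Slc30a8 and G6pc2 had a like order over the replicate numbers, and their difference within an array was lower on exoNOD arrays, without passing a test. On the log2 scale Slc30a8 minus G6pc2 was −0.73, −0.45 and −0.76 on exoNOD arrays 1, 2 and 3, against −0.28, −0.13 and −0.11 on control arrays 1, 2 and 3. These ranges did not overlap. Gad1 minus Slc30a8, by comparison, was −3.41, −3.08 and −2.79 on exoNOD arrays and −3.29, −3.08 and −2.73 on control arrays 1, 2 and 3. Such a difference needs no scaling between arrays. All 28 pairs of the 8 genes were compared, and 4 did not overlap, namely Slc30a8 with G6pc2 and Gad1 with Ptprn, Ptprn2 and Tspan7. The pairs with Gad1 share that gene, whose own groups did not overlap, so they are not separate observations. Without any difference between groups, a given pair has a probability of 0.1 of not overlapping. The share over all pairs of genes on the array was not computed. A two-sided exact permutation test gave p = 0.1 for each of these, the smallest that 3 arrays against 3 allow, and 0.7 after Benjamini-Hochberg adjustment over the 28 pairs. None of the 28 therefore passed, and none could have.

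**Figure D3:**
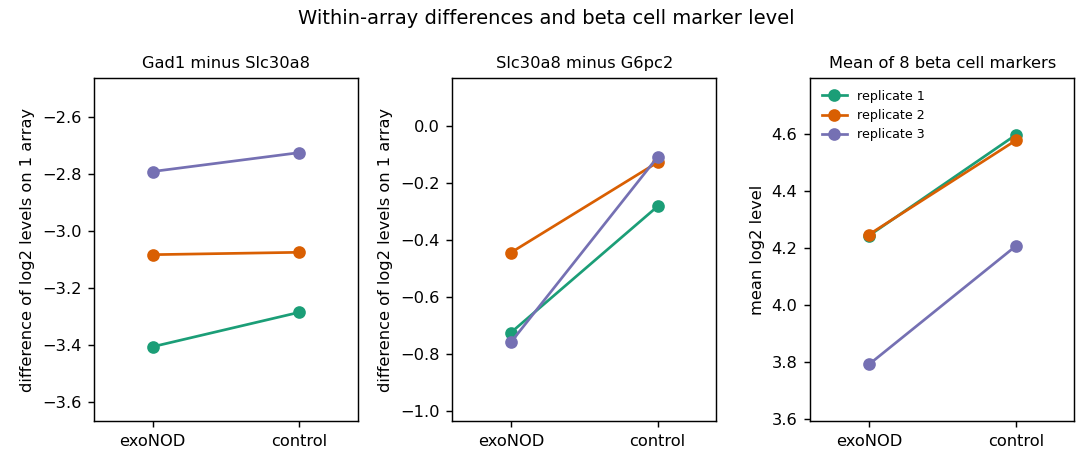
Difference of log2 levels between 2 genes on the same array (left, Gad1 minus Slc30a8; middle, Slc30a8 minus G6pc2) and mean log2 level of 8 beta cell markers (right), each with exoNOD left of control and points of equal replicate number joined. Each panel spans 1.2 log2 units; Slc30a8 minus G6pc2 is lower on each exoNOD array than on any control array, and the marker mean is lowest in replicate 3 of each group.

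Tspan7, the tetraspanin recognised by autoantibodies against an islet membrane glycoprotein, had signals of 29129, 26745.5 and 26307 on exoNOD arrays 1, 2 and 3, against 31465, 32186 and 27496 on control arrays 1, 2 and 3. On the log2 scale relative to each array, all 3 exoNOD arrays lay below all 3 control arrays (4.96 ± 0.10 in exoNOD cells and 5.16 ± 0.07 in control cells). Together with Gad1 it made 2 of 8 genes whose exoNOD arrays were all lower, as were those of 7.77% of all genes; 0 of the 8 had all exoNOD arrays higher, against 14.6% of all genes. The log2 change was −0.21 ± 0.09 (95% interval −0.42 to 0.01, limma adjusted p = 0.314, and 0.174 with the block), so Tspan7 did not pass. Within slide 1 the change was −0.095, and for exoNOD replicates 2 and 3 it was −0.26.

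Ica1, the islet cell antigen that binds membranes of immature granules, had signals of 8366, 6602 and 8581 on exoNOD arrays 1, 2 and 3, against 8691, 8063 and 8259 on control arrays 1, 2 and 3. The groups overlapped, and exoNOD replicate 2 was the low array. The log2 change was −0.15 ± 0.12 (95% interval −0.43 to 0.13, limma adjusted p = 0.539). A second probe, for another Ica1 transcript, had a change of −0.18 ± 0.11. In levels relative to the 75th percentile, both probes were lower on the exoNOD array of all 3 pairs, although the unscaled signal of the first was higher on exoNOD array 3 than on control array 3. Without exoNOD replicate 2 the change of the first probe was −0.031, and within slide 1 it was −0.032. Ica1 was 1 of 4 genes, with Gad1, Slc30a8 and Tspan7, that were lower in all 3 pairs, as were 22.1% of all genes; 0 of the 8 were higher in all 3 pairs, as were 29% of all genes.

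The phosphatase-like antigens gave intervals around 0. Ptprn had signals of 1056, 1122 and 1081 on exoNOD arrays 1, 2 and 3, against 990, 1299.85 and 1069.99 on control arrays 1, 2 and 3. Its exoNOD values lay inside the control range, with a log2 change of −0.09 ± 0.11 (95% interval −0.35 to 0.17, limma adjusted p = 0.699). Without control replicate 2 the change was −0.011, and without control replicate 1 it was −0.18. Ptprn2 had signals of 267, 319.7 and 280.3 on exoNOD arrays 1, 2 and 3, against 265, 289 and 278 on control arrays 1, 2 and 3. The groups overlapped, and its log2 change was −0.00072 ± 0.12 (95% interval −0.28 to 0.28, adjusted p = 0.998). The 2 dimmer probes of Ptprn2 disagreed with the brightest, with changes of −0.16 ± 0.14 and −0.29 ± 0.16, each lower in all 3 pairs and neither past the threshold. The mean over its 3 probes changed by −0.15.

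Over the whole array, 26 genes rose and 1 fell, and 2249 genes (8.72%) passed with the replicate block. Of genes at an unadjusted p under 0.05, 79.7% were higher in exoNOD cells, against 57.7% after quantile normalization (22 rose and 17 fell past the threshold), 41.8% after median scaling (12 and 1) and 40.3% with normexp background correction (121 and 41). The median change of all genes moved to −0.11 with median scaling and to 0.35 with normexp, where the median of the 8 autoantigen genes was −0.26 and −0.27. The arrays had 75th percentiles of signal between 869 and 890 for exoNOD and between 812 and 883 for control, and 0 spots were saturated. Labelled as islet cells, both groups carried high hormone signals: the level of Ins2, which encodes insulin, was 8.63 in exoNOD and 8.70 in control cells, and that of the glucagon gene Gcg 8.58 and 8.68.

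Markers of the beta cell shared a direction by mean but differed in the size of their change. All 8 beta cell markers were lower by mean in exoNOD cells (median change −0.36), 0 of 8 fell in limma without the block and 5 fell with it. Those were Mafa (−0.30, adjusted p = 0.0431 with the block), Nkx6-1 (−0.42, 0.0137) and Ucn3 (−0.73, 0.00197), and, chosen after their values were seen, Glp1r (−0.45, 0.0308) and the glucose transporter Slc2a2 (−0.83, 0.00069). Within slide 1 their changes were, in the same order, −0.19, −0.27, −0.45, −0.37 and −0.25. The groups of Slc2a2 overlapped, and its limma adjusted p without the block was 0.422. Mafa and Nkx6-1 are transcription factors of the mature beta cell, and Ucn3 encodes a peptide it releases. The mean level of the 8 markers was 4.24, 4.25 and 3.79 on exoNOD arrays 1, 2 and 3, against 4.60, 4.58 and 4.21 on control arrays 1, 2 and 3. Its part in the falls of Gad1 and Slc30a8 was not tested. The insulin genes themselves had changes of −0.12 (Ins1, adjusted p = 0.498) and −0.07 (Ins2, 0.712), with Ins2 at 0.025 under quantile normalization. Iapp, another of the 8 markers, changed by −0.014 (limma adjusted p = 0.949 without the block) and was named after its value was seen. The signal of the beta cell markers was also summed, in multiples of the 75th percentile of the array. The sum was 1036 to 1045 in exoNOD and 1061 to 1128 in control cells. Ins2, Ins1 and Iapp, with levels of 8.63, 8.32 and 8.26 in exoNOD cells, make up most of it. The highest level among the other markers was 2.65 (Nkx6-1), so the sum says little about them.

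Markers of other cells gave the following sums on the same scale. Macrophage markers had 15.5 to 15.8 in exoNOD and 20.6 to 21.8 in control cells (5 of 5 tested lower by mean). With the block 2 of these 5 fell, Itgam (−0.50, adjusted p = 0.00896) and Adgre1 (−0.87, 0.0158), while Cd14, Csf1r and Lyz2 had changes of −0.07, −0.02 and −0.02; these 5 were named after their values were seen. T lymphocyte markers had 14.1 to 18.5 in exoNOD and 14.1 to 19.0 in control cells (4 of 5 higher, with Cd3d and Cd3g not above background). B lymphocyte markers had 0.381 to 0.460 in exoNOD and 0.260 to 0.326 in control cells (5 of 5 higher). Duct cell markers had 9.87 to 12.7 and 7.28 to 9.82 (4 of 6 higher), and acinar markers 1.76 to 2.41 and 1.61 to 1.80 (6 of 7 higher, with Cela2a not above background). Endothelial markers had 8.62 to 9.25 and 7.15 to 8.30 (3 of 6 higher), fibroblast, stellate and pericyte markers 62.3 to 87.5 and 52.8 to 76.9 (4 of 9 higher), and Schwann cell and neuron markers 8.16 to 8.91 and 7.05 to 8.98 (5 of 7 higher), exoNOD first in each case. These sums are signals and not shares of cells, and some rest mostly on a single bright gene. Itgam, for example, had a level of 3.67 in exoNOD cells, and the next macrophage marker, Csf1r, had 1.28. The part of cell shares in the changes of the 8 genes was not tested.

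Other proteins reported as islet autoantigens had a median change of −0.05, with 6 of 17 higher and 11 lower. Without the block 0 of the 17 passed, and with it 2 fell, Ucn3 and the transcription factor Pdx1 (−0.37, adjusted p = 0.0409 with the block, chosen after its value was seen). The members with the lowest p were Prph, a neuronal intermediate filament (0.58, adjusted p = 0.234), Vamp2, a vesicle fusion protein (−0.32, 0.242), and Gfap, a filament of glial cells (0.57, 0.262). Islet transcription factors had a median of −0.17, with 0 of 13 past the threshold without the block and 4 falling with it. Besides Mafa, Nkx6-1 and Pdx1 the fourth was Nkx2-2 (−0.32, 0.0436 with the block), chosen after its value was seen. Within slide 1 the changes of Nkx2-2 and Pdx1 were positive (0.068 and 0.038). Rfx6, a factor of islet development, changed by −0.22 (0.294 without the block).

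The pathway that uses the Gad1 product was mixed. Of 9 tested genes for GABA synthesis, transport and breakdown, 6 were higher and 3 lower (median 0.22), 0 passed without the block and 1 fell with it. That was Aldh5a1, which encodes the last enzyme of GABA breakdown (−0.37, adjusted p = 0.0257 with the block, chosen after its value was seen), although within slide 1 its change was 0.19. The GABA transporters Slc6a11 and Slc6a13 had changes of 0.61 and 0.80 and did not pass (adjusted p = 0.270 and 0.390). Both are among the 6 higher genes and were dim, with levels of −5.49 and −5.19 in exoNOD and −6.11 and −5.99 in control cells. Neither was above background on all 6 arrays, so each entered the count and the median through the filter of 1 group alone. Of 13 GABA receptor genes 8 were above background, and 0 passed without the block. Gabbr2, a subunit of the metabotropic GABA receptor, rose with it (log2 change 0.81 ± 0.26, adjusted p = 0.230, and 0.00111 with the block). The ionotropic subunits Gabrg3 (0.56, 0.259) and Gabra3 (0.38, 0.447) did not pass.

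Genes that share the granule with the antigens had a median change of −0.15, with 15 of 18 lower. Without the block 0 passed, and with it Pcsk1n fell (−0.49, adjusted p = 0.0932, and 0.0159 with the block); its protein inhibits a prohormone convertase. Rab3a, a GTPase of exocytosis, changed by −0.27 (0.269), and Pam, which amidates peptides, by 0.24 (0.385). Receptor tyrosine phosphatases related to Ptprn had a median of −0.09 with 12 of 16 lower, 0 past the threshold without the block and 1 that fell with it. This was Ptprb, known from endothelial cells (−0.84, 0.00631 with the block), whose change was 0.0029 with normexp. Ptpro (0.36, 0.322) and Ptprg (0.32, 0.372) did not pass.

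Relatives of the zinc transporter had a median near 0, with 7 of 15 tested higher and 8 lower. Without the block 0 passed, and with it the vesicular zinc transporter Slc30a2 rose (0.52 ± 0.13, adjusted p = 0.158, and 0.0135 with the block), opposite in sign to Slc30a8. The zinc-binding metallothionein genes Mt2 (0.73, 0.208) and Mt1 (0.38, 0.317) did not pass. Among 9 genes that handle glucose-6-phosphate 0 passed without the block, and with it 1 rose and 2 fell. The hexokinase gene Hk2 rose (1.04 ± 0.18, 0.0823, and 0.000613 with the block). G6pdx, of the pentose phosphate pathway, was among those that fell with the block (−0.30, 0.0475, chosen after its value was seen). The liver glucose-6-phosphatase gene G6pc changed by 0.52 (0.254) and did not pass. Of 18 other tetraspanins 9 were higher and 9 lower, 0 passed without the block, and with it Tspan4 (0.51, 0.0126) and, chosen after its value was seen, Cd9 (0.30, 0.0473) rose, while Tspan5 (−0.37, 0.0222) and Tspan2 (−0.35, 0.0286) fell. Of genes named as rising or falling with the block, Gad1, Ucn3, Slc2a2, Gabbr2 and Hk2 passed in 8 of 8 alternative fits with it. Each of the others missed the threshold in at least 2 of them, leaving aside Itgam and Adgre1, whose alternative fits are not reported here.

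**Figure D4:**
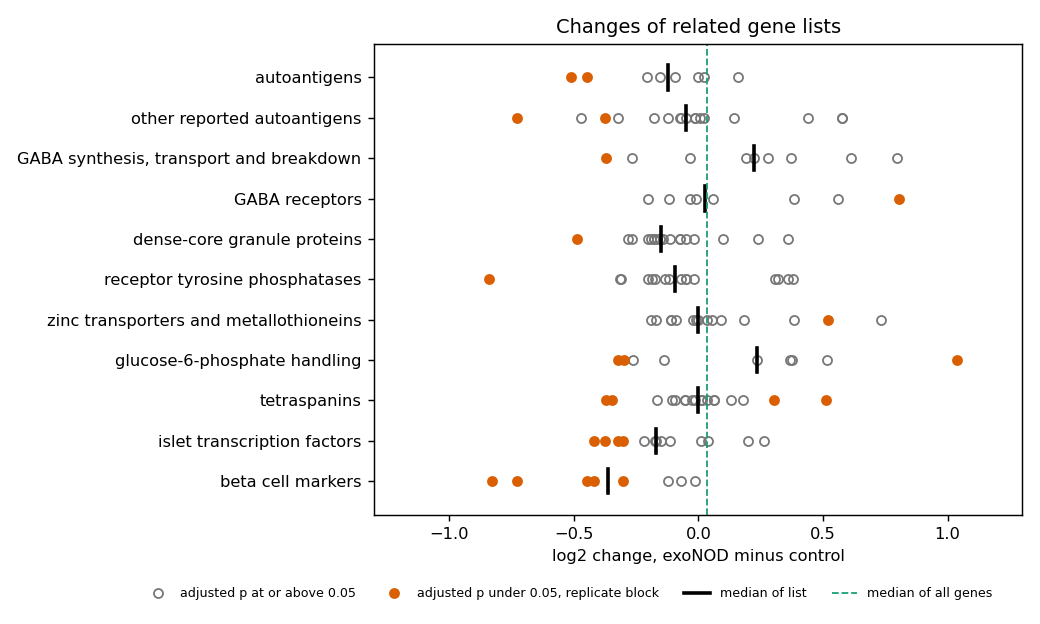
Log2 change (exoNOD minus control) of each tested gene in the 8 autoantigen genes and 10 related lists, one row per list. Filled points passed with the replicate block, bars are list medians and the dashed line is the median of all genes (0.04); the lowest list median, −0.36, is that of the beta cell markers.

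The 5 genes whose levels over the 6 arrays were most like the mean profile of the 8 autoantigen genes were Lgalsl, Slc7a8, Hibadh, Sfrp5 and Svop. Their Pearson correlations with that profile lay between 0.995 and 0.998 over 6 arrays, picked as the highest among 11165 genes. Because the profile holds the difference between the groups, this choice fixes the direction of their changes, which are given as a description with no test. The profile, centred on 0, was 0.04, 0.01 and −0.28 on exoNOD arrays 1, 2 and 3, against 0.17, 0.16 and −0.10 on control arrays 1, 2 and 3. Replicate 3 was the lowest of each group, and exoNOD was the lower array of each pair. The differences of means were −0.30 for Slc7a8, an amino acid transporter, −0.31 for Lgalsl and −0.52 for the Wnt antagonist gene Sfrp5. They were −0.18 for Hibadh, of valine breakdown, and −0.28 for Svop, a synaptic vesicle protein.

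**Figure D5:**
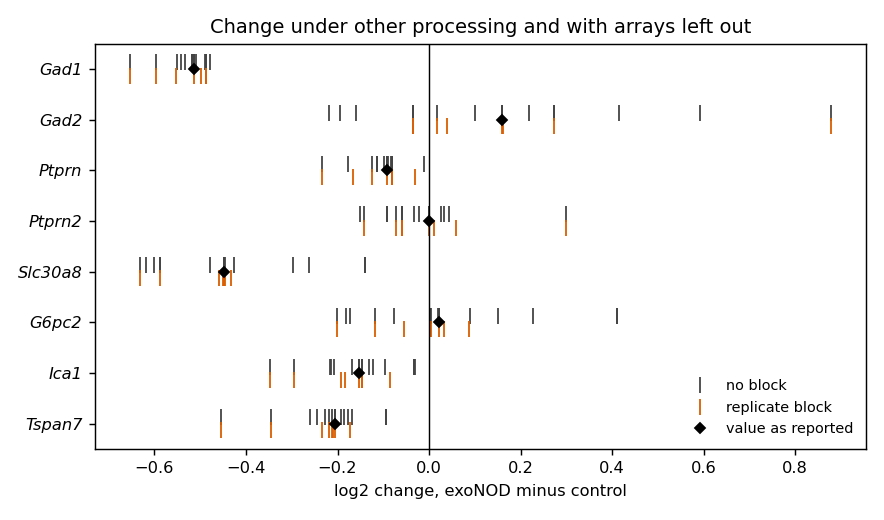
Log2 change (exoNOD minus control) of each of the 8 genes under 25 alternatives of processing, without a block (grey) and with the replicate block (orange), and as reported (black). All values of Gad1 lie between −0.65 and −0.48 and those of Slc30a8 between −0.63 and −0.14, while Gad2, Ptprn2 and G6pc2 have values on both sides of 0.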

How the data were processed

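Each of the 6 RNA samples was run on its own Agilent array with a single dye, Cy3. The intensity files were deposited as scanner output of Agilent Feature Extraction 11.0.1.1, per the file headers; the intensity used is the processed signal, from which the authors had subtracted background and spatial trend, with no step between arrays. The deposited spot flags are other values (0 or 1), per the file headers. A log2 table of processed values was deposited too. How it was normalized is not stated in the labels, and it differs from a quantile normalization of the processed signal by a median of at most 0.0014. It covers 31766 probes and correlates at 0.9998 or more with the matching array across probes.

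Uneven or outlier spots (0.381% to 0.618%) were left out, spots of a probe were averaged as log2 signal, and the 75th percentile of each array was subtracted. Probes above background on all arrays of a group were kept (31063 of 39429); 27234 probes had a symbol by RefSeq accession. The brightest probe stood for its gene. Groups were compared with limma 3.58.1 (trend, two-sided) in R 4.3.3 with the data.table package (version 1.17.8). The fit was checked on simulated data. Exact permutation tests were used for within-array differences.

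Equal replicate numbers were taken as pairs because of how such arrays deviated from their group means. These deviations correlated at 0.366, 0.281 and 0.480 across genes, against −0.341 to 0.0088 for unequal numbers. Within a group the deviations cancel out, so positive correlations of equal numbers partly force the other correlations down. The pairing was thus read from the same data that the block fits use, and the labels do not state it. The alternatives were the block, background correction, scaling, the authors' values, filters, probe choice, slide, variance trend, array weights and arrays left out. The files hold no mean spot signal, so normexp (offset 50) used the median signal. The 8 genes, the lists and the rule for named genes were chosen with earlier results of these data known. That rule takes the 8 genes, up to 3 members of each related list by lowest p, the hormone genes Ins1, Ins2, Gcg and Sst, and 5 genes of like profile with an SD of at least 0.15; 2 list members it takes are not reported here.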

Additional observations from a re-analysis of the deposited data

How the results depend on the processing

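Gad1, Slc30a8, Ptprn, Ica1 and Tspan7 kept a negative change in all 25 alternatives. Of the 8 autoantigen genes, limma called 2 with the replicate block, 2 with it after quantile normalization, in the authors' values or with median scaling, 1 with it after normexp and 1 with array weights; leaving out single arrays gave 0 to 1, and leaving out a pair under the block 1 to 2. Their median change was −0.27 with normexp and −0.26 with median scaling, with or without the block, and lay between −0.19 and −0.10 with single arrays left out. The count of 27 genes became 2249 with the replicate block, 1256 with it after quantile normalization, 1231 with it in the authors' values, 4173 with it and median scaling and 190 with it and normexp. It was 162 with normexp, 13 with median scaling and 308 with array weights. It was 0 in limma without a filter on dim probes, with slide as a block, on slide 1 alone and without a variance trend, where 4638, 931, 1143 and 4357 genes had an unadjusted p under 0.05. Leaving out single arrays gave 0 to 1272 genes; the count was 0 when exoNOD 2, control 1 or control 2 was dropped (3052, 2556 and 2424 at an unadjusted p under 0.05), and the block gave 4171, 447 and 1738 without pair 1, 2 or 3.

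Signs turned as follows. Gad2 was at −0.035 under quantile scaling and −0.036 for the deposited log2 table, each also with the block, −0.20 with array weights, and −0.22 to 0.59 with single arrays left out (negative without exoNOD replicate 2, −0.22, or control replicate 3, −0.16). Ptprn2 was at 0.30 with normexp, also with the block, and −0.073 to 0.045 with single arrays left out (positive when exoNOD 1, 0.045, exoNOD 3, 0.026, or control 3, 0.032, was dropped). Under the block it was at 0.012 without pair 1 and 0.059 without pair 3. G6pc2 was at −0.20 with normexp and −0.12 with median scaling, each also with the block, −0.077 with array weights, −0.18 to 0.23 with single arrays left out (negative when exoNOD 1, −0.17, or control 3 was dropped) and −0.054 under the block without pair 3. Ins2 and Gcg were at 0.025 under quantile scaling and for the deposited table, with and without the block. Aldh5a1 (0.19), Nkx2-2 (0.068) and Pdx1 (0.038) turned with slide as a block and on slide 1 alone, and Ptprb (0.0029) with normexp, also with the block. The cause was not tested. The block with normexp, with median scaling and without a pair was added after seeing the data. Slc6a11 and Slc6a13 gave no value where probes had to be above background on all arrays. The number of arrays and, for Gad2, the dim signal limit the precision.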

Other observations

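Markers of the other endocrine cells were lower as well. All 6 delta and PP cell markers were lower by mean in exoNOD cells (median log2 change −0.26); in limma 0 passed without the block and 1 fell with it, the peptide YY gene Pyy (−0.40 ± 0.14, adjusted p = 0.244, and 0.0445 with the block). The pancreatic polypeptide gene Ppy changed by −0.35 (0.280), the retinol carrier gene Rbp4 by −0.31 (0.328) and the somatostatin gene Sst by −0.21 (0.460), all without the block. Of 5 alpha cell markers above background 4 were lower (median −0.10) and 0 passed in either fit. Pou3f4 was not above background.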
